A study of Mus musculus with 4 samples.

Results

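Interferon-stimulated genes encode the antiviral proteins that a cell makes once type I interferon has bound its receptor. A list of 47 such genes, chosen by symbol as the core of the response, was followed in RNA from IL-4-treated mouse macrophages. It holds antiviral effectors, RNA sensors, Stat2, PARP genes, Ifi200 genes and Ifitm genes, and leaves out the IRF, GBP, IRG, Schlafen and TRIM families. All 47 symbols were found among the 23259 that carry a value in the 4 libraries. The macrophages were grown from bone marrow of C57BL/6 mice at 7 weeks of age and all received IL-4, a cytokine of alternative activation, for 24 hours. No untreated culture was analysed here, so every value is a level under IL-4. Of the libraries, 2 carry the genotype label wild type and 2 the label Sema6D-/-, a homozygous knockout of the semaphorin gene Sema6d. How the knockout was made, the sex of the mice and whether the 2 libraries of a label came from separate mice or cultures are not stated. P-values therefore measure the spread between these libraries, which may be technical.

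The library titles begin with K where the genotype label reads wild type and with W where it reads Sema6D-/-. Groups here were formed by the stated genotype. If genotypes had been exchanged at labelling, every sign below would turn and every p-value would stay. Sema6d itself (chromosome 2, 124089943 to 124667789) was read at 0.166 and 0.389 FPKM for wild type and 0.106 and 0.315 FPKM for Sema6D-/-, at most 38 fragments in any library, and does not check the label. FPKM counts fragments relative to transcript length and library size. Depth, estimated from the steps between low values, came to 8310000 to 9330000 fragments per library, so that 1 fragment gave a transcript of 1 kb between 0.107 and 0.12 FPKM. Below, each gene is given as the values of wild type replicates 1 and 2 against those of Sema6D-/- replicates 1 and 2. Differences are those of log2(FPKM + 1), Sema6D-/- minus wild type, with the limma test adjusted by Benjamini-Hochberg over the 10115 genes whose mean over the libraries reached 1 FPKM. This scale understates the change of genes with low values.

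In the canonical pathway, type I interferons bind the receptor chains IFNAR1 and IFNAR2. The kinases JAK1 and TYK2 then phosphorylate STAT proteins, and STAT2 enters the nucleus in a complex with IRF9. This complex binds the interferon-stimulated response element, a promoter sequence built from repeats of GAAA. Macrophages keep a low tonic level of the response even without infection, and several of the induced genes, among them Irf7 and Stat2, feed back on the pathway itself.

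All 47 genes had both Sema6D-/- libraries below both wild type libraries, an arrangement found for 27.4% of all genes tested. Of the 46 that could be tested, 41 fell and 0 rose at an adjusted p under 0.05, where 4.91% of all genes tested fell and 4.8% rose, 9.72% together. The median difference over the 46 genes was -0.68, beside 0.0029 over all genes tested. Mean FPKM was 1.05-fold to 7.48-fold lower, with a median of 1.68-fold, and at least 2-fold lower for 14 of the 46. Xaf1 stood apart from the rest, followed by Usp18, Oasl1, Mx1, Ifit3, Ifit2, Ifi44 and Ifit1. Isg20, Samhd1, Ifitm1, Ifitm2 and Nmi did not pass the test. Summed over the 47 genes, the level was 4364 and 4579 against 2537 and 2900 FPKM (0.827% and 0.85% against 0.45% and 0.525% of all FPKM). In such bulk RNA, fewer cells with the response and less RNA per cell cannot be told apart.

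**Figure D1:**
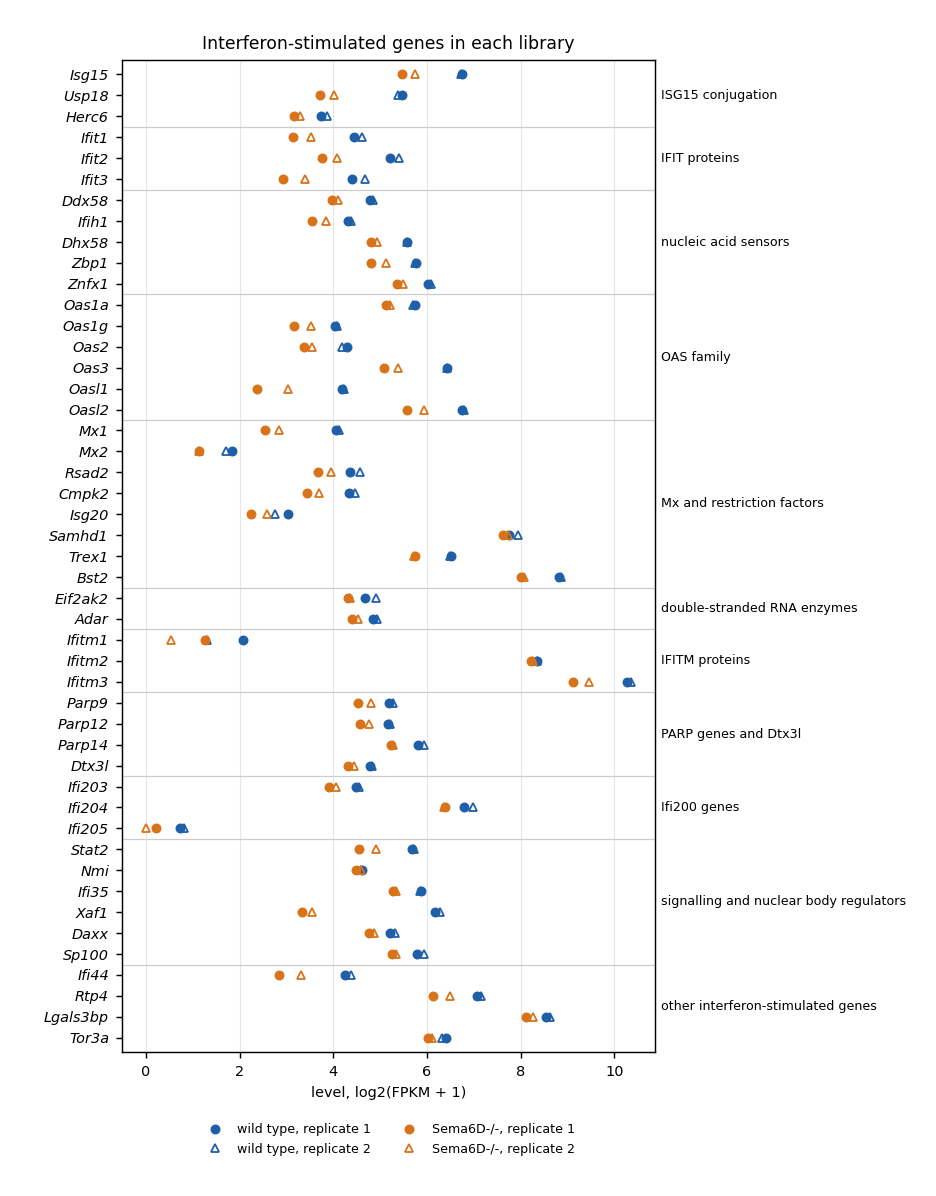
Level of each of the 47 genes in each library as log2(FPKM + 1), 1 point per library, with circles for replicate 1 and triangles for replicate 2, grouped by role. Both Sema6D-/- points lie to the left of both wild type points for every gene, closely so for Samhd1, Ifitm1, Ifitm2 and Nmi.

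The count of genes that fell rested on the number of libraries. It was 28 without wild type replicate 1, 24 without wild type replicate 2, 16 without Sema6D-/- replicate 1 and 29 without Sema6D-/- replicate 2, in each case a subset of the 41, and no gene changed direction. The 12 that passed in all 4 of these fits were Isg15, Usp18, Ifit2, Dhx58, Oas3, Oasl2, Mx1, Trex1, Bst2, Ifitm3, Stat2 and Xaf1. The 6 that passed in none of them were Mx2, Rsad2, Adar, Dtx3l, Lgals3bp and Tor3a. With genes of low values kept, so that 23259 enter the fit, 2 of the list fell, Trex1 and Xaf1. Fits with 3 libraries assume that the lone library of a label varies like the pair of the other. In each of them, fewer of all genes tested fell as well, so the smaller counts are not particular to the list. The median difference of the list in these fits, in the order above, was -0.690, -0.702, -0.605 and -0.770.

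**Figure D2:**
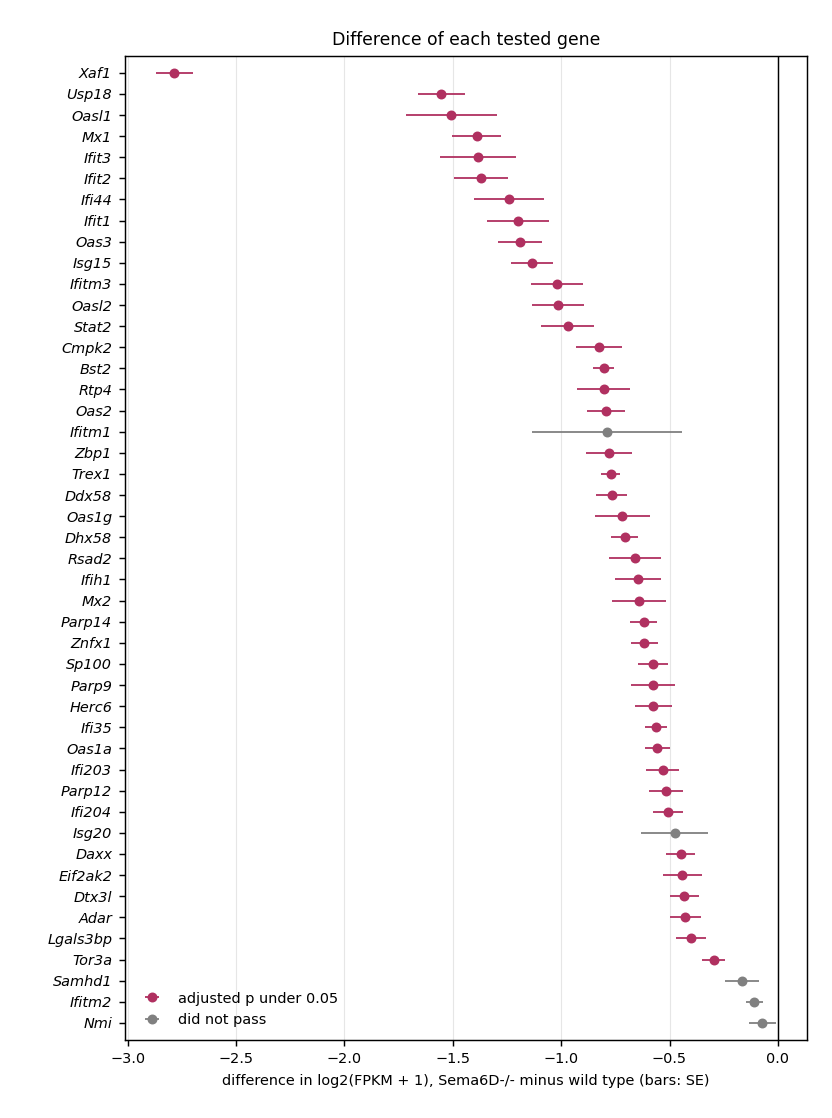
Difference of each of the 46 tested genes in log2(FPKM + 1), Sema6D-/- minus wild type, with the standard error from limma as bars and the 5 genes that did not pass in grey. All points lie below 0, from -2.78 for Xaf1 to -0.07 for Nmi.

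**Figure D3:**
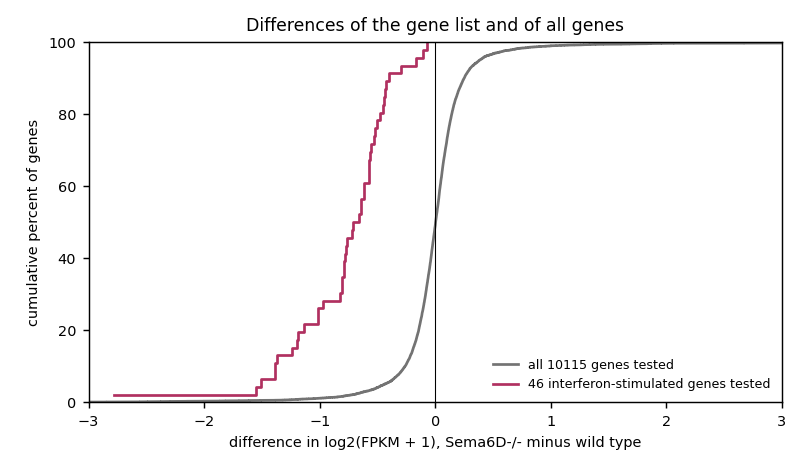
Cumulative percent of genes by difference in log2(FPKM + 1), for the 46 genes of the list and for all 10115 genes tested, on an axis that ends at 3 in each direction. The curve of all genes crosses 50% near 0, at a median of 0.0029, and that of the list at -0.68.

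Promoters were described where sequence was given. The list was chosen as genes of the interferon response, so a frequent response element follows from that choice and does not bear on the fall. RefSeq windows on GRCm38.p6, from 250 bases before to 50 bases after a transcript start, were at hand for 36 of the 47 genes. The core of the response element, GAAA followed by any 2 bases and a second GAAA, was searched on both strands with overlapping matches allowed. It was present in a window of 16 of the 36 genes (44.4%) and of 3.75% of the 7314 other tested genes with a window. Counted by window, it was in 16 of 47 windows of the list (34%) and in 3.44% of all 32851 windows. The palindromic core TTCNNNGAA, which STAT dimers bind, was present for 9 of the 36 genes (25%) and for 8.22% of those other genes. It was in 19.1% of the list's windows and in 8.3% of all windows. A match describes the letters and does not show binding. The following stretches belong to the 5 genes of smallest p with a match ahead of the annotated gene, and to Ifitm2, which has a match and did not pass. Each runs 5′ to 3′ on the strand of the gene and ends before the transcript start, and capitals mark the bases of the GAAA core or of its reverse complement.
Bst2, minus strand, chr8:71537567-71537622: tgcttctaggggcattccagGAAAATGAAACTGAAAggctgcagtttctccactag
Oas3, minus strand, chr5:120777705-120777754: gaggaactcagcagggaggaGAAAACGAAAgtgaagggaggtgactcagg
Isg15, minus strand, chr4:156200855-156200916: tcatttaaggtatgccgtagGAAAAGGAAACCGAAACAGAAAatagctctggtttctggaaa
Ifit1, plus strand, chr19:34640765-34640833: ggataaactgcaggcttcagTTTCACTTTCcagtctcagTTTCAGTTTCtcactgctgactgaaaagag
Stat2, plus strand, chr10:128270256-128270305: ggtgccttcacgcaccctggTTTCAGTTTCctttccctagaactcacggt
Ifitm2, minus strand, chr7:140955978-140956027: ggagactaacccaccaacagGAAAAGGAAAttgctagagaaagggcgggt
Isg15 carried 3 overlapping matches in 1 run that ends 57 bases before its start, Bst2 and Ifit1 carried 2 matches each, and Oas3, Stat2 and Ifitm2 carried 1. The Ifitm2 stretch lies inside the annotated gene, ahead of a downstream start. Of the 15 tested genes with the core, 14 fell, with a median difference of -0.77. Of the 20 tested genes whose windows lack it, 16 fell, with a median of -0.58, and Xaf1, Trex1 and Ifit2 are among them. The windows hold only part of each promoter, and the 11 tested genes without a window, all of which fell, were not searched.

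The genes of ISG15 conjugation all fell. Isg15 (chromosome 4, 156199424 to 156200818), a ubiquitin-like protein that is attached to other proteins, was at 107 and 105 against 43.2 and 52.9 FPKM. The wild type pair was nearly level and the Sema6D-/- pair lay at less than 60 FPKM, a 2.21-fold fall (-1.13 ± 0.10 (SE), adjusted p = 0.00438). Usp18 (chromosome 6, 121245906 to 121270917), the protease that removes ISG15 and also damps receptor signalling, was at 43.2 and 40.8 against 12.2 and 15.3 FPKM. It fell 3.06-fold (-1.55 ± 0.11 (SE), adjusted p = 0.00246) and had the second largest difference of the list. Herc6, the main ligase for ISG15 in mice, was at 12.3 and 13.5 against 7.92 and 8.77 FPKM and fell 1.55-fold (adjusted p = 0.0181). Among the fits with 3 libraries it passed only without wild type replicate 1, with adjusted p-values of 0.0722, 0.139 and 0.0840 without wild type replicate 2, Sema6D-/- replicate 1 and Sema6D-/- replicate 2. Isg15 lies near the end of chromosome 4. Of the 17 other tested genes within 500 kb of it, 0 fell and 0 rose, where 4.91% and 4.8% of all genes tested did. Their median difference was -0.06. The neighbour Agrn came closest to a call, at 6.94 and 5.76 against 3.99 and 4.35 FPKM (-0.50, adjusted p = 0.0544).

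The 3 IFIT genes, neighbours on chromosome 19 whose proteins bind foreign RNA and restrain its translation, fell by similar amounts. Ifit2 (chromosome 19, 34550550 to 34576534) was at 35.8 and 41.2 against 12.6 and 16 FPKM and fell 2.69-fold (-1.37 ± 0.12 (SE), adjusted p = 0.00496). Ifit1 was at 20.8 and 23.5 against 7.78 and 10.5 FPKM, a 2.42-fold fall (-1.20 ± 0.14 (SE), adjusted p = 0.0100), and Ifit3 at 20.1 and 24.6 against 6.57 and 9.49 FPKM, a 2.78-fold fall (-1.38 ± 0.18 (SE), adjusted p = 0.0122). In each of the 3, the highest Sema6D-/- value was well under the lowest wild type value. Without Sema6D-/- replicate 1 the adjusted p was 0.0508 for Ifit1 and 0.0627 for Ifit3. Of the 50-base stretches of Ifit3 transcripts, 51.2% also occur in another gene, mostly its copy Ifit3b, so the split of reads between them is uncertain. Ifit3b, listed under an older symbol, was itself at 0.891 and 0.926 against 0.0609 and 0.294 FPKM.

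Sensors of foreign nucleic acid fell in 5 of 5 cases, within a narrow range of differences from -0.78 to -0.62. Dhx58 encodes LGP2, a helicase that modulates the other sensors, and was at 47 and 46.5 against 26.9 and 29.7 FPKM (-0.71 ± 0.06 (SE), adjusted p = 0.00479). Ddx58, the RNA sensor RIG-I, was at 26.4 and 27.9 against 14.8 and 16.3 FPKM (-0.77 ± 0.07 (SE), adjusted p = 0.00513). Znfx1, a helicase that binds double-stranded RNA, was at 63.7 and 66.5 against 40.2 and 44.1 FPKM (-0.62 ± 0.06 (SE), adjusted p = 0.00665). Within each label the replicates of these 3 genes differed by less than 0.14 in log2(FPKM + 1), and the labels were apart by more than 4 times that. The other members were Ifih1, the sensor MDA5 of long double-stranded RNA (18.9 and 19.8 against 10.7 and 13.4 FPKM), and Zbp1, a sensor of Z-form nucleic acid that can trigger cell death (53.5 and 52.3 against 27.2 and 33.9 FPKM). Ifih1 passed only without Sema6D-/- replicate 2 among the fits with 3 libraries (otherwise adjusted p = 0.0708 to 0.101). Without Sema6D-/- replicate 1, Ddx58 (0.0543) and Znfx1 (0.0558) no longer passed by adjusted p, nor did Zbp1 without wild type replicate 1 (0.0517).

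The 6 OAS genes of the list, all on chromosome 5, fell. The OAS enzymes make short oligoadenylates on double-stranded RNA, which switch on the RNA-cutting enzyme RNase L. Oas3 (chromosome 5, 120753098 to 120777684) was at 85.4 and 85.3 against 33.1 and 41 FPKM and fell 2.30-fold (-1.19 ± 0.10 (SE), adjusted p = 0.00417). Oas1a was at 52.6 and 51.3 against 33.7 and 36.3 FPKM (-0.56 ± 0.06 (SE), adjusted p = 0.00671) and Oas2 at 18.7 and 17.3 against 9.33 and 10.6 FPKM (-0.79 ± 0.09 (SE), adjusted p = 0.00773), both with the labels clearly separate. The largest fall of the family was that of Oasl1, an OAS-like protein that represses translation of Irf7 mRNA. It was at 17.1 and 17.9 against 4.19 and 7.14 FPKM and fell 3.09-fold (-1.51 ± 0.21 (SE), adjusted p = 0.0147), with Sema6D-/- replicates that differed by 0.65 in log2(FPKM + 1). Oasl2 fell 2.02-fold and Oas1g 1.70-fold. Oas1a and Oas1g share sequence: 57.6% of the 50-base stretches of Oas1a and 45.7% of those of Oas1g occur in another gene, and their promoter windows share a run of 73 identical bases. Their separate levels are therefore uncertain. Oas1a and Oas2 no longer passed without Sema6D-/- replicate 1 (0.0606 and 0.0675 as adjusted p), and Oasl1 without wild type replicate 1 (0.0507) or 2 (0.0563). Oas1g passed only without Sema6D-/- replicate 2 among the fits with 3 libraries (0.0874, 0.0980 and 0.0976 as adjusted p in the others). Oas1b, an OAS gene outside the list that was looked up after the values were seen, was at 3.65 and 4.59 against 1.83 and 2.22 FPKM (-0.76 ± 0.14 (SE), adjusted p = 0.0326) and passed in 1 of the 4 fits with 3 libraries.

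Among Mx genes and restriction factors, 6 of 8 fell. Trex1 (chromosome 9, 109057932 to 109059723), an exonuclease that clears cytosolic DNA, was at 90.8 and 89.2 against 52.5 and 52.1 FPKM and fell 1.72-fold (-0.77 ± 0.04 (SE), adjusted p = 0.00147). Its replicates agreed to within 0.03 in log2(FPKM + 1). Trex1 transcripts lie within those of Atrip on the annotation, and 95.8% of their 50-base stretches are shared, while Atrip stood at 4.47 and 4.62 against 4.65 and 4.89 FPKM (adjusted p = 0.733). Bst2 (chromosome 8, 71534255 to 71537472), or tetherin, which holds budding virus on the cell surface, was at 454 and 466 against 255 and 270.3 FPKM and fell 1.75-fold (-0.80 ± 0.05 (SE), adjusted p = 0.00164). Mx1 (chromosome 16, 97447035 to 97462906), a dynamin-like GTPase gene that is annotated as a transcribed pseudogene in this strain's genome, was at 15.6 and 16.3 against 4.86 and 6.17 FPKM and fell 2.90-fold (-1.39 ± 0.11 (SE), adjusted p = 0.00360). Mx2, also a transcribed pseudogene there, was at 2.59 and 2.27 against 1.19 and 1.20 FPKM and lost its call without any 1 library (adjusted p up to 0.153).

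Rsad2 and Cmpk2 are neighbours on chromosome 12. Rsad2 encodes viperin, which makes a chain-terminating nucleotide, and Cmpk2 a mitochondrial nucleotide kinase. Rsad2 was at 19.5 and 22.7 against 11.7 and 14.4 FPKM (adjusted p = 0.0310) and Cmpk2 at 19.2 and 21 against 9.85 and 12 FPKM (adjusted p = 0.0125). Both fell, Rsad2 without a call in any fit of 3 libraries and Cmpk2 with 0.0761 as the adjusted p without Sema6D-/- replicate 1. The exonuclease gene Isg20 was at 7.19 and 5.73 against 3.77 and 4.96 FPKM and did not pass (-0.48 ± 0.15 (SE), adjusted p = 0.132). Samhd1, which depletes the cell of deoxynucleotides, was among the most abundant genes of the list at 213 and 245 against 197 and 212 FPKM and did not pass either (-0.16 ± 0.08 (SE), adjusted p = 0.274). Its lowest wild type library was 213 FPKM and its highest Sema6D-/- library 212 FPKM, a gap smaller than the spread within either label.

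The enzymes that act on double-stranded RNA showed smaller differences. Eif2ak2, the kinase PKR that stops translation, was at 24.4 and 28.9 against 19 and 19.6 FPKM (-0.44 ± 0.09 (SE), adjusted p = 0.0415). Adar, which edits adenosines in double-stranded RNA, was at 28 and 29.5 against 20.1 and 22.2 FPKM (-0.43 ± 0.07 (SE), adjusted p = 0.0234). Both fell, by 1.38-fold and 1.36-fold. Neither passed without wild type replicate 2 (0.0890 and 0.0848 as adjusted p), Sema6D-/- replicate 1 (0.233 and 0.144) or Sema6D-/- replicate 2 (0.181 and 0.0762), and Adar also not without wild type replicate 1 (0.0575).

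The Ifitm genes, a cluster on chromosome 7 whose membrane proteins block virus entry, went apart. Ifitm3 (chromosome 7, 141009590 to 141010744) had the highest level of the list, at 1228 and 1311 against 552 and 709 FPKM, and fell 2.01-fold (-1.02 ± 0.12 (SE), adjusted p = 0.00994). Ifitm2, some 50 kb away, was at 325 and 326 against 298 and 305 FPKM and did not pass (-0.11 ± 0.04 (SE), adjusted p = 0.183). The difference between these 2 genes was itself not tested. Ifitm1 was at 3.22 and 1.47 against 1.41 and 0.454 FPKM, at most 32 fragments in a library, and did not pass (-0.79 ± 0.35 (SE), adjusted p = 0.236). Its wild type replicate 2 and Sema6D-/- replicate 1 were almost level. Of the 50-base stretches of Ifitm2, 48.5% occur in other genes, mostly pseudogenes, against 10% for Ifitm3, so the level of Ifitm2 is uncertain.

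The PARP genes, which encode ADP-ribosyltransferases, and Dtx3l fell in 4 of 4 cases, by 1.36-fold to 1.55-fold. Parp14, Parp9 and Dtx3l lie together on chromosome 16, and DTX3L and PARP9 form a ubiquitin ligase complex. Parp14 (chromosome 16, 35831892 to 35871518) was at 55 and 60 against 36.4 and 37.8 FPKM (-0.62 ± 0.06 (SE), adjusted p = 0.00599), with the labels more than 17 FPKM apart. Parp12 was at 35 and 36.1 against 22.9 and 26.3 FPKM (-0.52 ± 0.08 (SE), adjusted p = 0.0190) and Dtx3l at 26.6 and 27.4 against 18.9 and 20.7 FPKM (-0.43 ± 0.07 (SE), adjusted p = 0.0195). Parp9 was at 35.6 and 37.8 against 22 and 26.8 FPKM (adjusted p = 0.0284). Without Sema6D-/- replicate 1 none of the 4 passed (adjusted p = 0.0709 for Parp14, 0.0963 for Parp12, 0.129 for Dtx3l and 0.104 for Parp9). Without wild type replicate 2 Parp14 alone passed (0.0694, 0.0743 and 0.0962 for the others), as without wild type replicate 1 (0.0560, 0.0579 and 0.0709).

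Of the Ifi200 genes, a chromosome 1 cluster for proteins that bind DNA, the 2 that could be tested fell. Ifi204 (chromosome 1, 173747293 to 173767069) was at 111 and 125 against 83.3 and 81.9 FPKM (-0.51 ± 0.07 (SE), adjusted p = 0.0137). Ifi203 was at 21.3 and 22.5 against 14 and 15.7 FPKM (-0.53 ± 0.08 (SE), adjusted p = 0.0167). Both showed a fall of less than 1.5-fold with no overlap of the labels. Ifi205 was below the filter at 0.644 and 0.77 FPKM for wild type and at 0.157 and an entry of 0 for Sema6D-/-, at most 30 fragments in a library, and was not tested. Copies of these genes share sequence, with 20% of the 50-base stretches of Ifi204 and 12.2% of those of Ifi203 also found elsewhere. Without Sema6D-/- replicate 1 the adjusted p was 0.114 for Ifi204 and 0.114 for Ifi203, and without Sema6D-/- replicate 2 it was 0.107 and 0.0612. Ifi203 also did not pass without wild type replicate 2 (adjusted p = 0.0660).

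Regulators of signalling and of nuclear bodies fell in 5 of 6 cases. Xaf1 (chromosome 11, 72301461 to 72313733), which promotes cell death by opposing the caspase inhibitor XIAP, was at 70.9 and 76.6 against 9.11 and 10.6 FPKM. It fell 7.48-fold (-2.78 ± 0.09 (SE), adjusted p = 2.16e-04), by far the largest difference of the list, and its adjusted p stayed at or under 0.00307 when any 1 library was left out. Ifi35 (chromosome 11, 101448412 to 101458701), a leucine zipper protein, was at 58.1 and 57.2 against 37.6 and 39.8 FPKM (-0.56 ± 0.05 (SE), adjusted p = 0.00514). Nmi, the partner that binds IFI35, was at 23.6 and 23.2 against 21.4 and 23.1 FPKM and did not pass (-0.07 ± 0.06 (SE), adjusted p = 0.544). Stat2 (chromosome 10, 128270498 to 128292853), the subunit of the transcription factor complex that is particular to type I and III interferon, was at 50.6 and 51.7 against 22.4 and 29.3 FPKM and fell 1.98-fold (-0.97 ± 0.12 (SE), adjusted p = 0.0119). Sp100 and Daxx, proteins of the nuclear bodies that silence viral genomes, were at 54.6 and 60.5 against 36.9 and 39.5 FPKM (-0.58 ± 0.07 (SE), adjusted p = 0.0104) and 36.1 and 38.9 against 26.1 and 28.4 FPKM (-0.45 ± 0.07 (SE), adjusted p = 0.0195). Without Sema6D-/- replicate 1, Ifi35 (0.0558), Sp100 (0.0979) and Daxx (0.136) no longer passed by adjusted p, nor did Sp100 (0.0636) and Daxx (0.0775) without Sema6D-/- replicate 2 or Daxx without wild type replicate 2 (0.0691).

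The last 4 genes all fell. Ifi44, whose product restrains virus growth, was at 18.1 and 19.8 against 6.15 and 8.96 FPKM and fell 2.51-fold (-1.24 ± 0.16 (SE), adjusted p = 0.0128). Rtp4, a chaperone of receptor transport with antiviral activity, was at 134 and 141 against 68.8 and 89.4 FPKM (-0.80 ± 0.12 (SE), adjusted p = 0.0194). Lgals3bp, a secreted glycoprotein that binds galectins, was at 374 and 397 against 275 and 308 FPKM (-0.40 ± 0.07 (SE), adjusted p = 0.0263). The torsin-family ATPase gene Tor3a was at 83.4 and 79.5 against 64.3 and 68 FPKM and had the smallest difference that passed (-0.30 ± 0.05 (SE), adjusted p = 0.0302). Rtp4 was called without either Sema6D-/- library in turn but not without wild type replicate 1 (0.0549) or 2 (0.0682), and Ifi44 not without wild type replicate 2 (0.0507).

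The libraries of 1 label also differed in these genes in a shared way. Among the 46 tested genes, 43 were higher in Sema6D-/- replicate 2 than in replicate 1, where 49.9% of all genes tested were. The exceptions were Trex1, Ifitm1 and Ifi204. The median of replicate 2 minus replicate 1 was 0.17 in log2(FPKM + 1) for the list and -2.02e-05 for all genes. In the wild type pair, 32 of 46 were higher in replicate 2 (48.6% of all genes), with a median of 0.06. The label difference was larger than both replicate differences for 44 of the 46 genes, where this held for 44.3% of all genes. Samhd1 and Nmi were the exceptions. The genes thus do not give 46 separate readings of the comparison. Across the 46 genes, the difference had little relation to the wild type level (Spearman's rho 0.10, Pearson's r 0.05). These are correlations across genes in the same libraries.

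**Figure D4:**
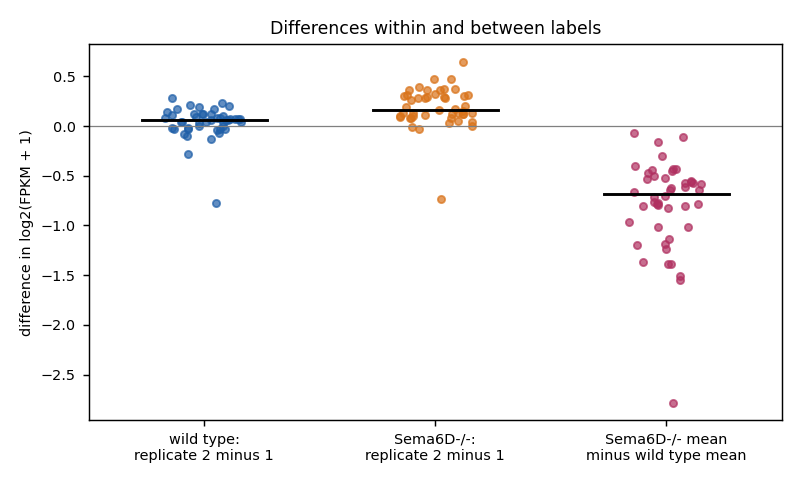
Differences in log2(FPKM + 1) of the 46 tested genes between the replicates of each label and between the label means, 1 point per gene with the median as a black line. The medians are 0.06 within wild type, 0.17 within Sema6D-/- and -0.68 between the labels.

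Other genes of interferon signalling were read from a separate list of 31 genes, of which 22 were tested. Of these, 6 fell and 1 rose, where 4.91% and 4.8% of all genes tested did. The ligand genes Ifnb1, Ifna1, Ifna2, Ifna4, Ifnab, Ifne and Ifnk were listed at 0 in all 4 libraries, and Ifng at 0.101 and 0.0984 FPKM against 0 in both. An exact 0 in these files can be a failed estimate. Ifnar1 was at 27.8 and 28.1 against 24.1 and 23.7 FPKM (-0.22 ± 0.05 (SE), adjusted p = 0.0636) and Ifnar2 at 84.6 and 88.9 against 88.6 and 83.1 FPKM (-0.02 ± 0.05 (SE), adjusted p = 0.891). Neither receptor chain for type I interferon passed. Ifngr2, a chain of the interferon gamma receptor, fell (117 and 116 against 98.5 and 102 FPKM, adjusted p = 0.0404), and of the receptor kinases Jak2 fell (33.4 and 30.3 against 23.5 and 24.2 FPKM, adjusted p = 0.0244) while Jak1 and Tyk2 did not pass (adjusted p = 0.240 and adjusted p = 0.557).

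The genes of transcription factors come next in the chain. Irf9, the partner of STAT2, was at 43.9 and 43.7 against 29.7 and 35.6 FPKM and fell 1.34-fold (-0.42 ± 0.09 (SE), adjusted p = 0.0494). Irf7, the factor that amplifies interferon production and is itself induced, was at 278 and 270.2 against 77.5 and 102 FPKM and fell 3.05-fold (-1.61 ± 0.13 (SE), adjusted p = 0.00327). Irf1, at 79.7 and 76.4 against 96.9 and 92.9 FPKM, was the 1 gene that rose (0.28 ± 0.05 (SE), adjusted p = 0.0284), and Irf3 did not pass (18.9 and 17.9 against 18.9 and 20.2 FPKM, adjusted p = 0.507). Among genes that induce interferon, Tmem173, the adaptor STING, fell (32.7 and 31.4 against 25.1 and 23.8 FPKM, adjusted p = 0.0195). Mavs, Tbk1, Ikbke, Ticam1, Myd88, Traf3 and the gene for cGAS did not pass. Of the negative regulators Ptpn6 fell (163 and 151 against 134 and 128 FPKM, adjusted p = 0.0492), and Socs1 did not pass (19.6 and 20.9 against 19.4 and 15.4 FPKM, adjusted p = 0.309). Irf7 passed in every fit with 3 libraries. Ifngr1, the other chain of the interferon gamma receptor, was at 45.8 and 76.4 against 77.8 and 79.7 FPKM (adjusted p = 0.334) and passed as higher only without wild type replicate 2 (0.00705 as adjusted p). Irf1, Ifngr2, Tmem173 and Ptpn6 passed in none of them (highest adjusted p = 0.179, 0.215, 0.123 and 0.232), Irf9 only without Sema6D-/- replicate 2 (otherwise up to 0.145) and Jak2 only without wild type replicate 2 (otherwise up to 0.173).

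**Figure D5:**
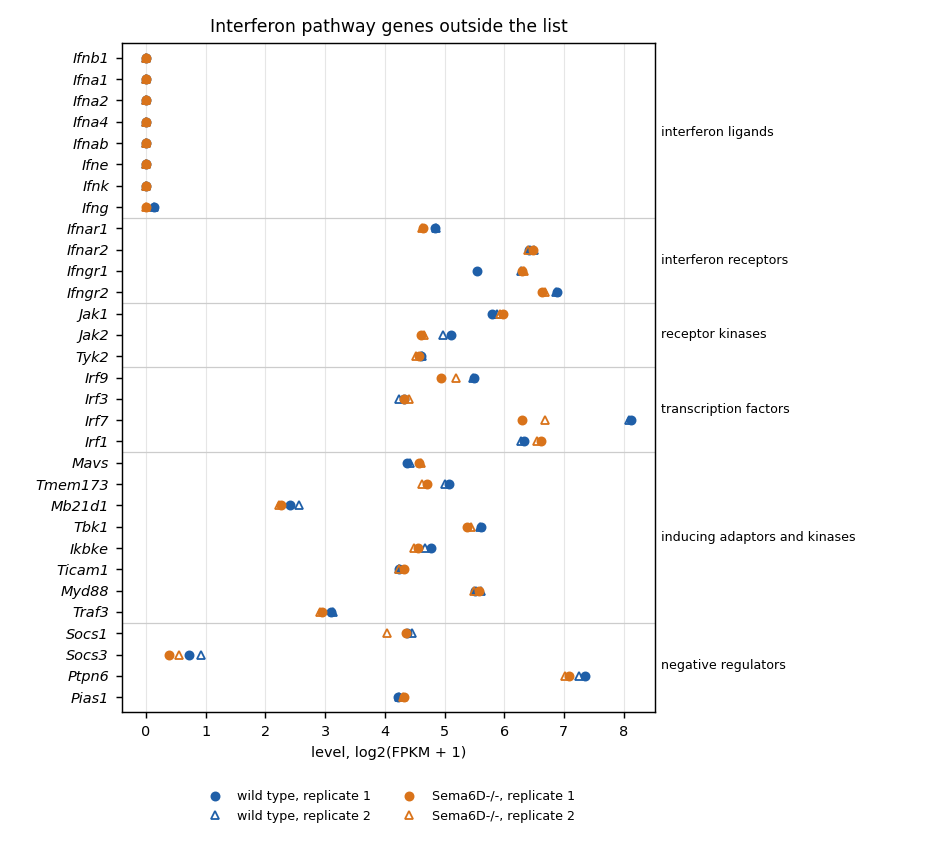
Level of the 31 other interferon pathway genes in each library as log2(FPKM + 1), 1 point per library, grouped by role. Irf7, at 278 and 270.2 against 77.5 and 102 FPKM, shows the widest gap, while the ligand genes sit at or near 0 and Ifnar2, Tyk2 and Myd88 overlap or nearly touch.

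Markers of other cells were read in the same libraries. Most macrophage genes were abundant in all 4. Csf1r was at 545 and 561 against 511 and 519 FPKM and Cd68 at 1325 and 1193 against 1551 and 1519 FPKM. Mertk was the lowest of them, at 12.1 and 11.1 against 11.1 and 9.16 FPKM. Of 8 such markers Lyz2, Itgam and C1qa fell and Adgre1 rose. Of 8 neutrophil markers 6 rose and 0 fell, with a summed level of 204 and 192 against 752 and 613 FPKM. S100a8, a calcium-binding protein of neutrophils, was at 72.2 and 79.1 against 295 and 232 FPKM, and S100a9 at 98.8 and 89.6 against 343 and 289 FPKM. These 2 genes made up most of the sum. The library with the lowest levels of most interferon-stimulated genes, Sema6D-/- replicate 1, had the highest neutrophil sum. With 2 libraries per label, this pairing was not tested. Of 5 eosinophil, basophil and mast cell markers, with a sum of 1.80 and 1.49 against 12.3 and 6.66 FPKM, the 2 that were tested rose. They were Prg2, the major basic protein of eosinophil granules, at 0.958 and 0.936 against 8.03 and 3.87 FPKM (adjusted p = 0.0235) and the basophil protease gene Mcpt8 at 0.319 and 0.156 against 2.10 and 2.02 FPKM (adjusted p = 0.00944). Among the 3 tested of 4 monocyte markers, F13a1 (8.19 and 8.74 against 2.58 and 3.38 FPKM, adjusted p = 0.00599) and Ccr2 (16.6 and 14.2 against 9.79 and 11.4 FPKM, adjusted p = 0.0495) fell and Ly6c2 rose (0.848 and 0.663 against 2.97 and 3.22 FPKM, adjusted p = 0.00769). Prg2, Mcpt8, Ly6c2 and the neutrophil marker Mpo had wild type means under 1 FPKM and met the filter only through their Sema6D-/- values. Being tested thus favoured a rise for these genes, and their calls add no support. Of 6 dendritic cell markers 2 were tested. Itgax, which macrophages also express, fell (402 and 407 against 304 and 319.9 FPKM, adjusted p = 0.0110) and Ccr7 did not pass. Below the filter, Zbtb46 was at 0.696 and 0.913 against 0.251 and 0.367 FPKM. Xcr1 was at 0.355 and 0.417 against 0.0777 and 0.0750 FPKM, while Flt3 and Cd209a overlapped between the labels. Markers of plasmacytoid dendritic cells, strong producers of interferon, summed to 8.89 and 9.34 against 9.27 and 9.16 FPKM over 6 genes, nearly all of it from Tcf4. The sum therefore says little of the others. Pacsin1, not tested, was at 0.589 and 0.769 against 0.215 and 0.138 FPKM, while Siglech, Ccr9, Ly6d and Klk1 overlapped between the labels. B cell markers summed to at most 1.14 FPKM and T and NK cell markers to at most 0.288. Of 4 markers of fibroblasts and stroma 3 were tested and 0 passed, with sums between 5.06 and 10.3 FPKM. The part of these cells in the differences was not tested.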

How the data were processed

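The 4 tables, 1 per library, hold FPKM values that the authors deposited, per the labels' protocols from strand-specific libraries. Per the submitters' processing notes, TopHat2 2.0.13, Bowtie2 2.2.3, SAMtools 0.1.19 and Cuffnorm 2.2.1 were used with mm10. The gene annotation and the handling of multi-mapped reads are not stated there. Of 23284 symbols, 25 that resemble dates had no value. Low values stood in whole-number ratios between libraries (89.4% to 92.5% of genes under 0.1 FPKM, within 0.02 in log2), which gave the depth estimate with GENCODE M21 exon lengths. Cuffnorm had normalized between libraries before this, so the number sequenced may differ.

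Differences were computed with limma 3.58.1 in R 4.3.3 (eBayes with trend, two-sided) on log2(FPKM + 1) for genes whose mean reached 1 FPKM, adjusted by Benjamini-Hochberg over all 10115. The filter admitted Ifitm1 although its Sema6D-/- mean is under 1 FPKM. Among the cell markers it admitted Mpo, Elane, Ccr7, Ly6c2, Prg2 and Mcpt8 although their wild type means are under 1 FPKM. The genes and lists were chosen with earlier results of these data known. In each role group, every library's value is given for the 3 genes of smallest p and for any that rose or did not pass; others shown were chosen after their values were seen. Positions and promoters are from RefSeq GRCm38.p6, the assembly that mm10 names. Reads shared between genes were gauged by the 50-base stretches of GENCODE transcripts that recur in another gene. Of the listed symbols, Mb21d1 and Ifit3b were found under an older name. A result of the pathway list is not reported here, and its counts leave that gene out.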

Additional observations from a re-analysis of the deposited data

How the results depend on the processing

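No gene of the list changed sign under any of the 13 alternatives. The number that fell, 41 with the settings of the report, was 2 with low values kept, where 23259 genes enter and the 2 are Trex1 and Xaf1, 30 with eBayes without trend, and 16 to 29 when 1 library was left out. The cause of the drop without a filter was not tested. The median difference was -0.559 with a pseudocount of 5, by the construction of that scale. Over all genes, 486 rose and 497 fell. These counts were 115 and 99 with low values kept, 261 and 327 for eBayes without trend, and 72 to 276 and 87 to 290 with 1 library left out. Of the other pathway genes, 1 fell and 0 rose with low values kept, 1 and 0 for eBayes without trend, and 1 to 2 and 0 to 1 with 1 library left out. Ifnar2 ranged from -0.060 to 0.030 and Myd88 from -0.070 to 0.029 in those fits, reversing without wild type replicate 2 (0.020 and 0.029) or Sema6D-/- replicate 2 (0.030 and 0.022).

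Whether libraries of the same replicate number were prepared together is not stated. Over all genes tested, deviations of same-numbered libraries were uncorrelated (r = -0.018). Of the 46 tested genes of the list, 43 were higher in replicate 2 for Sema6D-/- and 32 for wild type. A shared effect of the replicate number on the list alone was not tested. With the replicate number as a block, 39 genes of the list fell (Mx2 and Tor3a lost), 300 of all genes rose and 337 fell, and 2 of the other pathway genes fell and 0 rose. Values near 1 FPKM rest on few fragments, which limits Ifitm1, Ifi205 and Mx2.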
